A study of Mus musculus with 231 samples.

Results

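Circulating mononuclear cells of 7 CM mice were profiled by small RNA sequencing before and after the fusion gene was switched on, and the library of month 1 was compared with the library of month 0 of the same mouse. These 14 libraries were taken by arm and month from the labels of the training cohort, in a series of 231 libraries. No measured value was used to pick them, although earlier results of these data were known when the comparison was chosen. CM mice are C57BL/6 conditional knock-in mice (Cbfb56M/+/Mx1-Cre) that express Cbfb-MYH11, the mouse form of the CBFB fusion gene found in inv(16) acute myeloid leukemia (AML). Expression is induced with poly(I:C), given intraperitoneally to mice of 6 to 8 weeks at 14 mg/kg every other day for 7 doses. All CM mice carry the genotype label CHW, which is not explained, and 4 were female and 3 male. The Ctrl arm, used here as background, held 7 littermates (2 female, 5 male; genotype labels HW, CW or WT) that received the same injections and were also sampled at months 0 and 1. The labels describe them as lacking the transgene, whereas the methods of the study also list littermates with the allele that was not switched on. Mx1-Cre answers to interferon and recombines in blood-forming cells and in other tissues, so the fusion is not restricted to the cells sampled. In CM mice alone, the fusion, the poly(I:C) itself and a month of age cannot be told apart, and poly(I:C) and age are shared by Ctrl mice.

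The 14 libraries held between 2981522 and 6233237 counts, and between 930 and 1019 miRNAs had a count above 0. Total counts did not differ detectably between the months (mean log2 change 0.15 ± 0.36 SD, n = 7 mice; two-sided exact sign-flip permutation test, p = 0.312). A level of 3 counts corresponded to between 0.481 and 1.01 CPM (counts per 1000000). The pan-leukocyte miR-142a-3p was abundant in every CM library (8644 to 35590 CPM), as was miR-142a-5p (29146 to 72858 CPM). At month 1 the libraries of 2 CM mice stood apart, because the 7 miRNAs of the erythroid list took 39.1% of the counts in mouse 3336 and 34.1% in mouse 3368, compared with 5.59% to 9.11% in the other 5 mice and 4.13% to 13.8% at month 0. In Ctrl mice that share was 2.88% to 24.4% at month 0 and 3.19% to 7.26% at month 1. The running numbers in the library names of mouse 3334 cross over with those of Ctrl mouse 3335 at later months. Results are therefore also given without mice 3336 and 3368, and without mouse 3334. The names further carry a G number whose meaning the labels do not give. No CM mouse had the same G number at both months, and 5 G numbers held CM libraries of both months.

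miRNAs are short RNAs that guide Argonaute proteins to messenger RNAs, mostly through the seed, bases 2 to 8 of the mature strand, and lower the output of the transcripts they pair with. Each hairpin can give a 5p and a 3p strand. In blood, many miRNAs mark a lineage or a stage. miR-126 is expressed in endothelium and in hematopoietic stem cells and lies in Egfl7, miR-196b lies among the Hoxa genes, whose expression marks primitive cells, and miR-34a is a transcriptional target of p53.

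Mature sequences of 12 of the 16 miRNAs that passed the test were found in RefSeq (GRCm38.p6), and these had 12 different seeds. The sequences below are those of the miRNAs that carry the comparison, with the seed in capitals. First come miRNAs that were higher at month 1, with miR-192-5p, which did not pass the test, shown because it has the seed of miR-215-5p.
miR-126a-3p: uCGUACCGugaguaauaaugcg
miR-31-5p: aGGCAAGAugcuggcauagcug
miR-499-5p: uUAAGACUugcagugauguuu
miR-196b-5p: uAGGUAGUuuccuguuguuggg
miR-215-5p: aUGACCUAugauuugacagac
miR-192-5p: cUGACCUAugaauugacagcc
Next come miRNAs that were lower at month 1, with miR-449a-5p, which did not pass the test, shown because it has the seed of miR-34a-5p.
miR-139-5p: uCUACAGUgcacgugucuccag
miR-34a-5p: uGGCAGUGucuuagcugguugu
miR-449a-5p: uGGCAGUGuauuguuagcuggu
miR-574-3p: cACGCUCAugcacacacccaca
miR-135a-5p: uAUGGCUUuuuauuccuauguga

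On GRCm38.p6, miR-126a-3p lies at chr2:26591402-26591423 on the plus strand, within the span of Egfl7. miR-31-5p lies at chr4:88910614-88910635 on the minus strand. miR-215-5p lies at chr1:185313610-185313630 on the plus strand, within the span of Iars2, and miR-499-5p at chr2:155622893-155622913 on the plus strand, within the span of the myosin gene Myh7b. miR-139-5p lies at chr7:101475382-101475403 on the plus strand, within the span of Pde2a, and miR-34a-5p at chr4:150068473-150068494 on the plus strand. miR-135a-5p is made from 2 genes, Mir135a-1 on chromosome 9 and Mir135a-2 on chromosome 10, whose reads cannot be separated.

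From month 0 to month 1, 16 of the 466 miRNAs tested changed in CM mice (3.43%; edgeR's quasi-likelihood test with mouse as a block, Benjamini-Hochberg adjusted p under 0.05). The 8 that rose (1.72%) were miR-126a-3p, miR-126a-5p, miR-215-5p, miR-499-5p, miR-31-5p, miR-151-5p, miR-196b-5p and miR-6412, and the 8 that fell (1.72%) were miR-139-5p, miR-135a-5p, miR-709, miR-1195, miR-34a-5p, miR-574-3p, miR-3547-3p and miR-467e-3p. Absolute log2 fold changes lay between 0.71 and 3.15. With raw library sizes, which put the median of all miRNAs at -0.15 in place of -0.01, 4 rose and 7 fell. Each of the 16 moved the same way in all 7 mice, as did 62 of the 466 (13.3%; 31 upward, 6.65%, and 31 downward, 6.65%), and for 7 of the 16 the 2 months did not overlap, as for 11 of the 466 (2.36%). In Ctrl mice 0 of 476 miRNAs (0%) passed the same test, with 46 at an unadjusted p under 0.05 compared with 130 in CM mice. DESeq2 called 4 of 476 in Ctrl mice (0.84%) and 81 of 466 in CM mice (17.4%). On the deposited CPM limma called 1 of 577 in Ctrl mice (0.173%) and 68 of 577 in CM mice (11.8%). Of the 476 in Ctrl mice, 21 moved the same way in all 7 mice (4.41%), 17 upward (3.57%) and 4 downward (0.84%). There 2 did not overlap between the months (0.42%). A further 11 miRNAs in CM mice shared the next adjusted p of 0.0507. Without mice 3336 and 3368 no miRNA passed among 473 (lowest edgeR adjusted p = 0.0834, 82 at an unadjusted p under 0.05), and leaving out 1 mouse gave 4 calls (without mouse 3336, 3338 or 3370), 5 (3357), 6 (3368), 12 (3341) or 47 (3334). Bulk libraries cannot tell fewer cells of a type from less of a miRNA per cell.

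Both strands of miR-126a rose. miR-126a-3p was at 102.3 to 188 CPM at month 0 (median 118.8) and at 222 to 447 CPM at month 1 (median 334). The months did not overlap, with the smallest rise in mouse 3334, from 138.2 to 222 CPM, and the largest in mouse 3338, from 109.2 to 447 CPM. The log2 fold change was 1.43 ± 0.22 (SE; edgeR adjusted p = 0.0124), a 2.69-fold increase. In the CPM deposited by the authors the mean was 126.3 ± 23.8 CPM (SD, n = 7) at month 0 and 343 ± 81.7 CPM (SD, n = 7) at month 1, higher in 7 of 7 mice (log2 change 1.42 ± 0.56 SD; two-sided exact sign-flip permutation test, p = 0.0156, the smallest that 7 pairs allow). miR-126a-5p was at 44.7 to 90.5 CPM (median 72.9) and then at 126.1 to 251 CPM (median 204). Its months did not overlap either, and its log2 fold change was 1.54 ± 0.24 (edgeR adjusted p = 0.0124). Without mice 3336 and 3368 the log2 fold changes were 1.41 and 1.48 (both edgeR adjusted p = 0.0834), and without mouse 3334 they were 1.57 and 1.72 (adjusted p = 0.00649 and 0.00539). miR-126b is annotated on the opposite strand at the same place, and whether counting used strand is not given in the sources used here.

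In Ctrl mice miR-126a-3p was at 92.5 to 440 CPM at month 0 and at 85.1 to 134.03 CPM at month 1. The 2 highest libraries of month 0 were those of mice 3342 (440 CPM) and 3340 (392 CPM), in which the erythroid list took 24.4% and 14.0% of the counts, and all other Ctrl libraries lay between 85.1 and 180 CPM. Whether the erythroid share had a part in these levels was not tested. miR-126a-5p was at 87.4 CPM in the first of these libraries, its highest Ctrl level, and at 78.5 CPM in the second, and its lowest Ctrl level was 37.8 CPM. The Ctrl log2 fold changes were -0.69 ± 0.37 for the 3p strand and -0.25 ± 0.23 for the 5p strand of miR-126a (edgeR adjusted p = 0.562 and 0.675). The change differed between the arms by 2.14 ± 0.45 for the 3p and by 1.82 ± 0.34 for the 5p strand (edgeR adjusted p = 0.0227 and 0.0168).

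**Figure D1:**
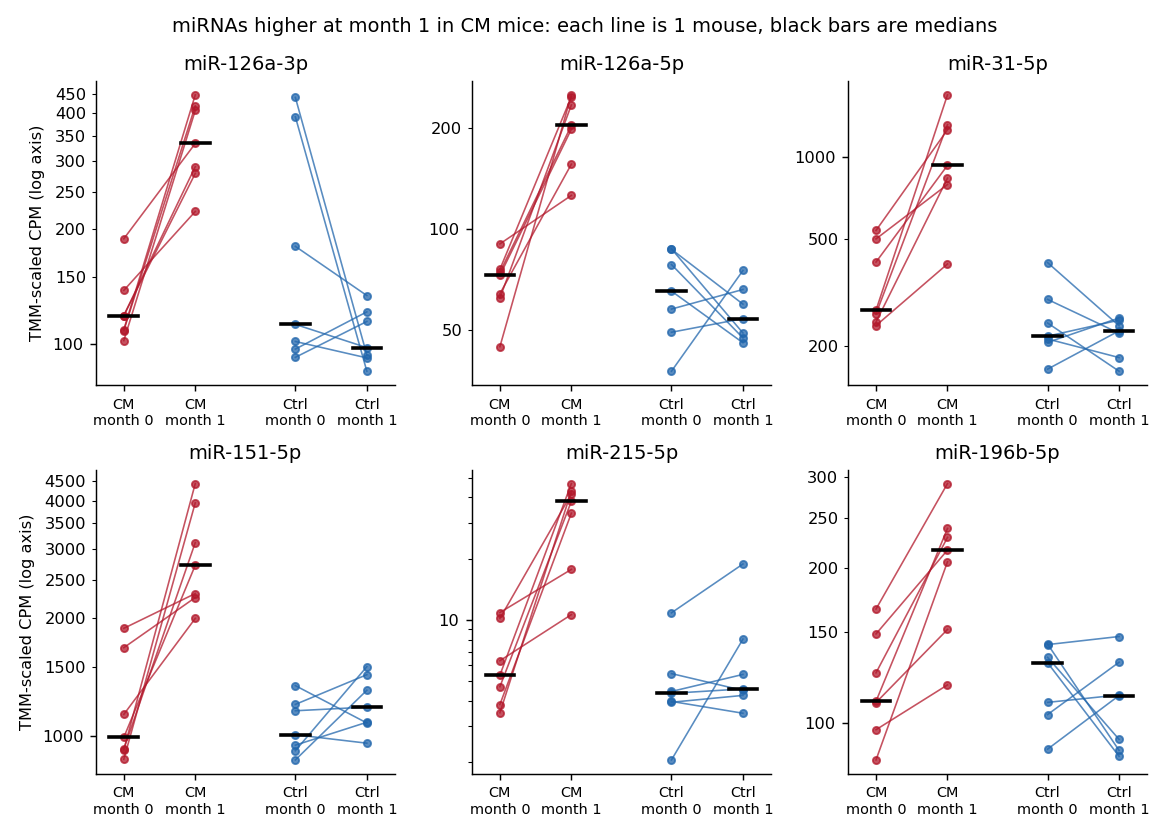
Levels of 6 miRNAs that rose in CM mice, in TMM-scaled CPM on a log axis. Each line joins the month 0 and month 1 libraries of 1 mouse (CM red, Ctrl blue, 7 mice each), and black bars are medians. All CM lines go up, while Ctrl lines go both ways; 2 Ctrl mice start at 392 and 440 CPM for miR-126a-3p.

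miR-31-5p, a miRNA studied in regulatory T cells and in epithelial tumors, was at 238 to 535 CPM at month 0 (median 272) and at 403 to 1697 CPM at month 1 (median 932). The months overlapped, since mouse 3334 reached only 403 CPM and 3 mice were above that level at month 0. Its log2 fold change was 1.51 ± 0.28 (edgeR adjusted p = 0.0203), with the steepest rise in mouse 3338, from 272 to 1697 CPM. miR-31-3p, the other strand of the hairpin, was scarce (4.09 ± 2.05 and 3.27 ± 1.71 CPM, SD, n = 7 each) and had a log2 fold change of -0.27 ± 0.46 (adjusted p = 0.784).

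miR-151-5p, whose host gene in mammals is the focal adhesion kinase gene Ptk2, was at 870 to 1884 CPM at month 0 (median 990) and at 1998 to 4426 CPM at month 1 (median 2734). The months did not overlap, and the log2 fold change was 1.32 ± 0.30 (edgeR adjusted p = 0.0444). Its partner strand miR-151-3p went from 644 ± 155 to 1266 ± 255 CPM (SD, n = 7 each), higher in 7 of 7 mice, with a log2 fold change of 0.98 ± 0.24 that missed the threshold (adjusted p = 0.0507).

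miR-215-5p, a p53-responsive miRNA, had the largest log2 fold change of the 8 that rose and went from 3.50 to 10.9 CPM at month 0 (median 5.36) to 10.6 to 46.8 CPM at month 1 (median 38.3). Mice 3334 and 3341 moved least, by 0.67 and 0.66 on the log2 scale, and the other 5 by 1.93 to 3.29. The log2 fold change was 2.33 ± 0.43 (edgeR adjusted p = 0.0198). miR-192-5p, which has the same seed, was at 595 ± 85.6 and then 765 ± 127.9 CPM (SD, n = 7 each), with a log2 fold change of 0.36 ± 0.20 (adjusted p = 0.279). The difference between these changes was not tested.

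miR-499-5p, a heart and slow muscle miRNA, was at 5.67 to 13.3 CPM at month 0 (median 6.97) and at 10.8 to 95.8 CPM at month 1 (median 18.98). The highest level was that of mouse 3336, 1 of the 2 mice with the most erythroid counts. Its log2 fold change was 1.75 ± 0.36 (edgeR adjusted p = 0.0313), and 1.30 without mice 3336 and 3368 (adjusted p = 0.0834). miR-208a-3p, another heart miRNA, had 0 counts in all 28 libraries of both arms. The tested members of the muscle list, miR-133a-3p, miR-1a-3p and miR-133b-3p, had log2 fold changes of 2.43, 0.92 and 0.49. None of them passed (edgeR adjusted p = 0.105, 0.437 and 0.516), and the part of muscle in the level of miR-499-5p was not tested.

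miR-196b-5p was at 84.8 to 166 CPM at month 0 (median 110) and at 118.6 to 292 CPM at month 1 (median 217), and its log2 fold change was 0.77 ± 0.18 (edgeR adjusted p = 0.0493). The months overlapped, although each mouse went up, by 0.29 to 1.27 on the log2 scale. miR-196a-5p, which shares its seed, was below 1 CPM on average at both months and was not tested. miR-6412, for which no role is given here, was at 33.2 to 60.4 and then 48.6 to 117.2 CPM (log2 fold change 0.71 ± 0.16, edgeR adjusted p = 0.0444). It was also higher in 7 of 7 Ctrl mice, by 1.27 ± 0.21 (adjusted p = 0.0919), and its months did not overlap there.

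Among the miRNAs that fell, miR-139-5p was the most abundant. miR-139-5p, which is described as a tumor suppressor in several cancers including AML, was at 1039 to 3681 CPM at month 0 (median 1337) and at 332 to 1100 CPM at month 1 (median 609). The months overlapped through mouse 3334, which was highest at both (3681 and 1100 CPM), and each mouse went down, by 0.60 to 2.02 on the log2 scale. Its log2 fold change was -1.29 ± 0.20 (edgeR adjusted p = 0.0124). miR-139-3p was lower in 7 of 7 mice as well (30.4 ± 13.4 to 16.8 ± 6.47 CPM, SD, n = 7 each), but its log2 fold change of -0.89 ± 0.24 did not pass (adjusted p = 0.0602).

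miR-34a-5p was at 59.3 to 91.7 CPM at month 0 (median 71.7) and at 37.5 to 48.7 CPM at month 1 (median 43.6). The months did not overlap, and the log2 fold change was -0.74 ± 0.16 (edgeR adjusted p = 0.0396). Its seed and family relatives went different ways. miR-449a-5p was at 8.83 and then 12.1 CPM on average (log2 fold change 0.27 ± 0.29, edgeR adjusted p = 0.599). miR-34c-5p had a log2 fold change of -1.32 ± 0.33 and was among the 11 miRNAs at an edgeR adjusted p of 0.0507. miR-34b-5p and miR-449c-5p were too low to test.

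miR-574-3p, within the span of Fam114a1, was at 38.4 to 142 CPM (median 52.5) and then at 16.9 to 54.8 CPM (median 31.4), and its log2 fold change was -0.85 ± 0.19 (edgeR adjusted p = 0.0444). These ranges overlapped. miR-574-5p, the other strand, had a log2 fold change of -0.28 ± 0.29 (adjusted p = 0.592).

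miR-135a-5p had the largest log2 fold change, -3.15 ± 0.51 (edgeR adjusted p = 0.0130). It was at 2.70 to 65.1 CPM at month 0 (median 18.9) and at 0.211 to 9.66 CPM at month 1 (median 1.05), where 3 libraries held fewer than 3 counts. In Ctrl mice it ranged from 0.430 to 164 CPM within month 1 alone, and its log2 fold change there was -2.76 ± 1.66 (adjusted p = 0.586). The change of miR-135a-5p did not pass the test of a difference between the arms (-0.35 ± 1.64, adjusted p = 0.959). miR-135a-1-3p, the other strand of the Mir135a-1 hairpin, was named after its values were seen. It was at 5.94 ± 6.38 and then 0.776 ± 0.828 CPM in CM mice (SD, n = 7 each), lower in 7 of 7, but was not tested there. In Ctrl mice it was higher in 4 and lower in 3, and its difference between the arms passed (-2.42 ± 0.64, edgeR adjusted p = 0.0421).

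The other members that fell were scarce. miR-1195 went from 11.8 to 58.8 CPM (median 24.4) to 3.81 to 9.80 CPM (median 7.83), and miR-709 from 10.98 to 29.9 CPM (median 17.97) to 2.85 to 9.75 CPM (median 7.83), each without overlap. miR-1195 had a log2 fold change of -1.77 ± 0.36 and miR-709 of -1.42 ± 0.25 (adjusted p by edgeR 0.0313 and 0.0184). The mature sequence of miR-1195 was found at 2 places in the NCBIM37 genome and those of miR-126a-3p, miR-31-5p, miR-139-5p and miR-34a-5p at 1. miR-3547-3p and miR-467e-3p, named after their values were seen because they are below the level set for naming, were at 5.44 ± 1.70 and 7.48 ± 2.87 CPM at month 0 and at 1.80 ± 1.40 and 2.41 ± 1.36 CPM at month 1 (SD, n = 7 each). They fell by 1.74 ± 0.31 and 1.68 ± 0.39 on the log2 scale (adjusted p by edgeR 0.0184 and 0.0444).

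**Figure D2:**
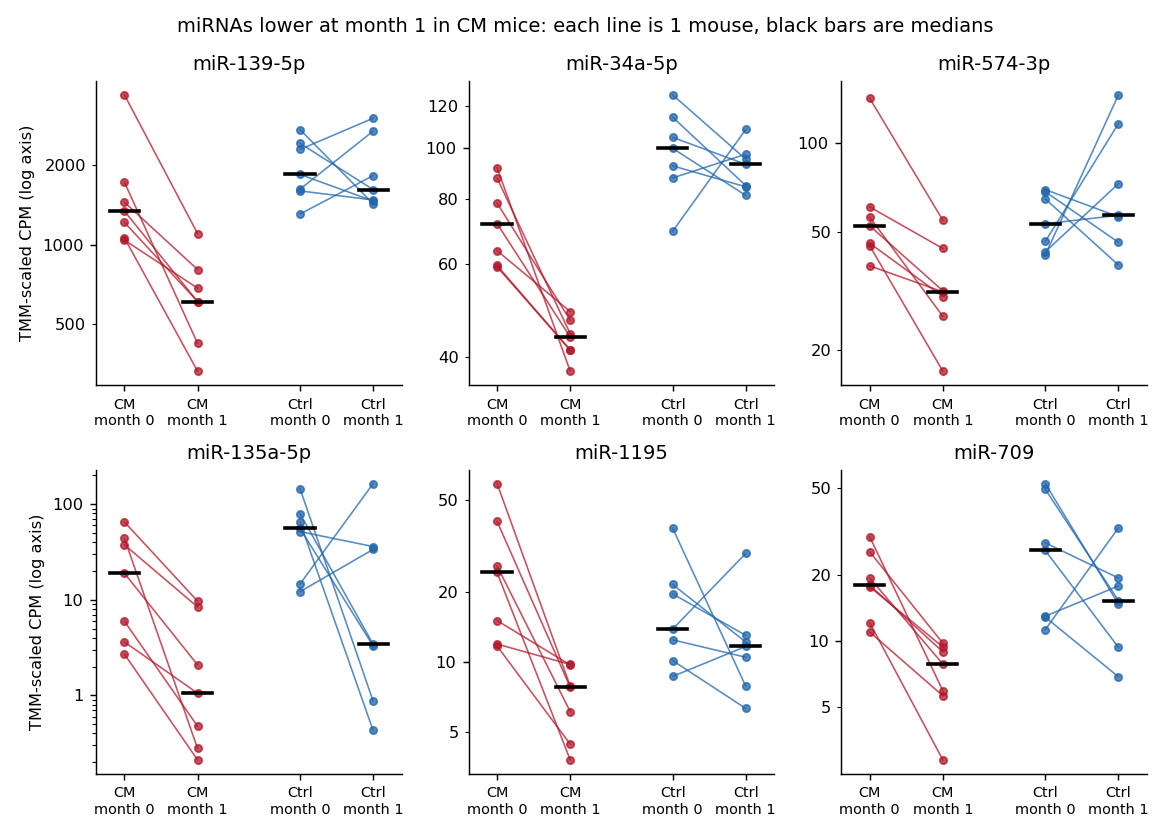
Levels of 6 miRNAs that fell in CM mice, drawn as for those that rose, on a log axis of TMM-scaled CPM. All CM lines (red) go down, and Ctrl lines (blue) go both ways; miR-135a-5p spans 0.430 to 164 CPM among Ctrl libraries of month 1.

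Direction was shared by the 7 mice, and size was not. Mouse 3338 had the largest rise for 5 of the 8 miRNAs that rose, and mouse 3334 or 3341 the smallest for 6 of them. In the 2 mice with the most erythroid counts at month 1, miR-126a-3p rose by 0.82 and 1.94 on the log2 scale, within the range of the other 5 mice (0.68 to 2.02). For miR-139-5p these 2 mice fell by 1.67 and 2.02, compared with 0.60 to 1.74 in the others. Without them the log2 fold change of all 16 miRNAs kept its sign, and that of miR-139-5p was -1.10, of miR-31-5p 1.47, of miR-151-5p 1.37 and of miR-34a-5p -0.71 (edgeR adjusted p = 0.0834, 0.108, 0.108 and 0.0834). Within the 5 G numbers that held CM libraries of both months, the mean difference had the direction of the pooled result in all 5 for 14 of the 16 miRNAs and in 4 of 5 for miR-135a-5p and miR-574-3p. It did so in all 5 for 23.8% of the 466, and the 16 were chosen on these same libraries. For miR-126a-3p these differences were 0.59 to 1.90 and for miR-139-5p -3.03 to -0.21, on the log2 scale.

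**Figure D3:**
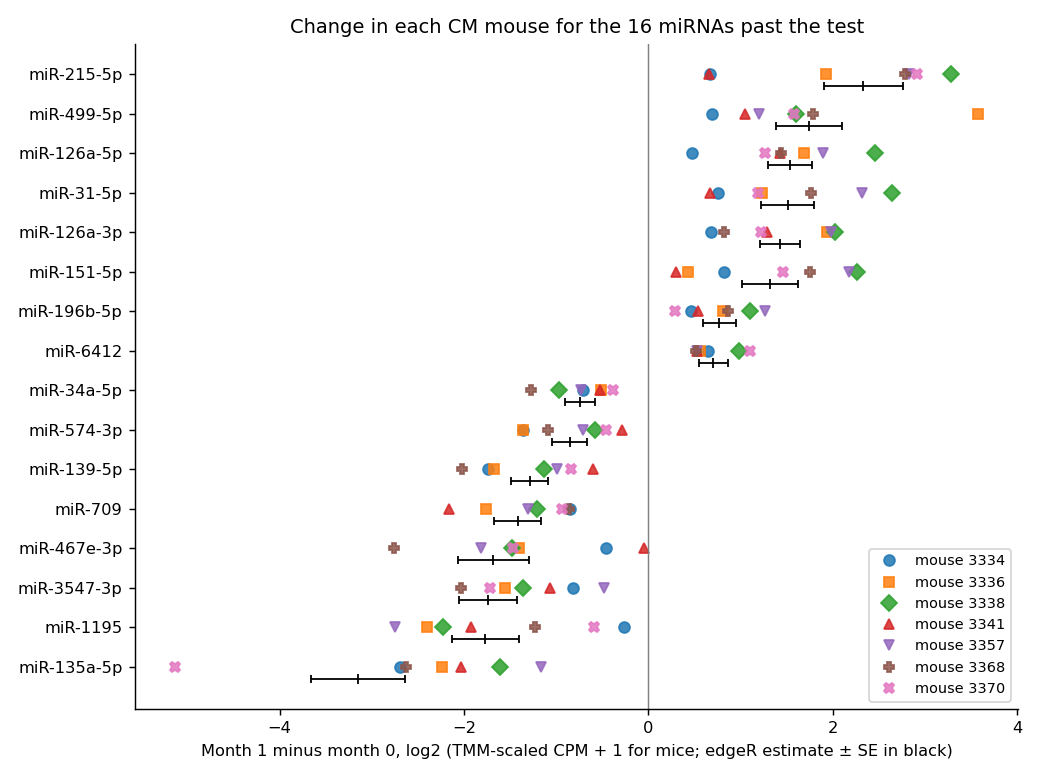
Change from month 0 to month 1 in each of the 7 CM mice (symbols) for the 16 miRNAs that passed the test, as log2 of TMM-scaled CPM plus 1, with the edgeR log2 fold change ± SE in black below each row. All symbols lie on 1 side of 0 for each miRNA, and mouse 3336 stands apart for miR-499-5p (3.58) and mouse 3370 for miR-135a-5p (-5.13).

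Whether the first month changed miRNAs differently in the 2 arms was tested by an interaction of arm and month on 28 libraries, which include the CM libraries used above. Of 520 miRNAs, 21 differed (4.04%), 14 with a log2 change that was more positive in CM than in Ctrl mice and 7 with one that was more negative (2.69% and 1.35%). With raw library sizes 3 differed, 1 more positive and 2 more negative. Among them were 10 of the 16 that changed in CM mice: miR-126a-3p, miR-126a-5p, miR-31-5p, miR-151-5p, miR-196b-5p, miR-215-5p and miR-499-5p, and on the other side miR-139-5p, miR-3547-3p and miR-467e-3p. The differences were 1.75 ± 0.34 for miR-31-5p, 1.21 ± 0.32 for miR-151-5p and -1.14 ± 0.29 for miR-139-5p (edgeR adjusted p = 0.0168, 0.0425 and 0.0410), and the Ctrl log2 fold changes of these miRNAs were -0.21 ± 0.18, 0.14 ± 0.14 and -0.11 ± 0.21. For miR-34a-5p, miR-574-3p, miR-1195, miR-709, miR-135a-5p and miR-6412 the difference did not pass (adjusted p between 0.130 and 0.959). Without Ctrl mouse 3335 0 of 524 miRNAs passed (98 at an unadjusted p under 0.05), without mouse 3357 1, and without mice 3336 and 3368 0 of 536 (62 at an unadjusted p under 0.05). Without mice 3334 and 3335 together 16 passed.

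The largest difference between the arms was that of miR-133a-3p, a muscle miRNA, at 4.52 ± 1.17 (edgeR adjusted p = 0.0410). It was at 0 to 6.62 CPM at month 0 and 4.77 to 29.6 CPM at month 1 in CM mice, higher in 7 of 7, and at 1.03 to 7.64 and then 0 to 1.74 CPM in Ctrl mice, lower in 7 of 7. The highest levels were those of mice 3336 (29.3 CPM) and 3368 (29.6 CPM), with the most erythroid counts, and the other 5 mice were at 4.77 to 9.47 CPM; the part of that share was not tested. Its own change in CM mice did not pass (2.43 ± 0.84, edgeR adjusted p = 0.105) and was 1.501 without these mice (edgeR adjusted p = 0.292) and 1.33 in the recovered reads. Over 29 alternatives the difference between arms ranged from 2.27 to 5.23 and missed the threshold in 19. The other 2 members of the muscle list that were tested did not pass in either test, and miR-1a-3p was at 107.8 ± 73.4 and 217 ± 176 CPM in CM mice (SD, n = 7 each). miR-2137 had a difference of 1.82 ± 0.45, miR-297b-3p of -1.36 ± 0.34 and miR-466f-3p of -1.03 ± 0.26 (edgeR adjusted p = 0.0410 for each). let-7g-5p, an abundant let-7 guide strand named after its values were seen, was higher in 7 of 7 CM mice (38045 ± 2847 to 53670 ± 9941 CPM, SD, n = 7 each) and lower in 6 of 7 Ctrl mice, a difference of 0.77 ± 0.19 (edgeR adjusted p = 0.0410).

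**Figure D4:**
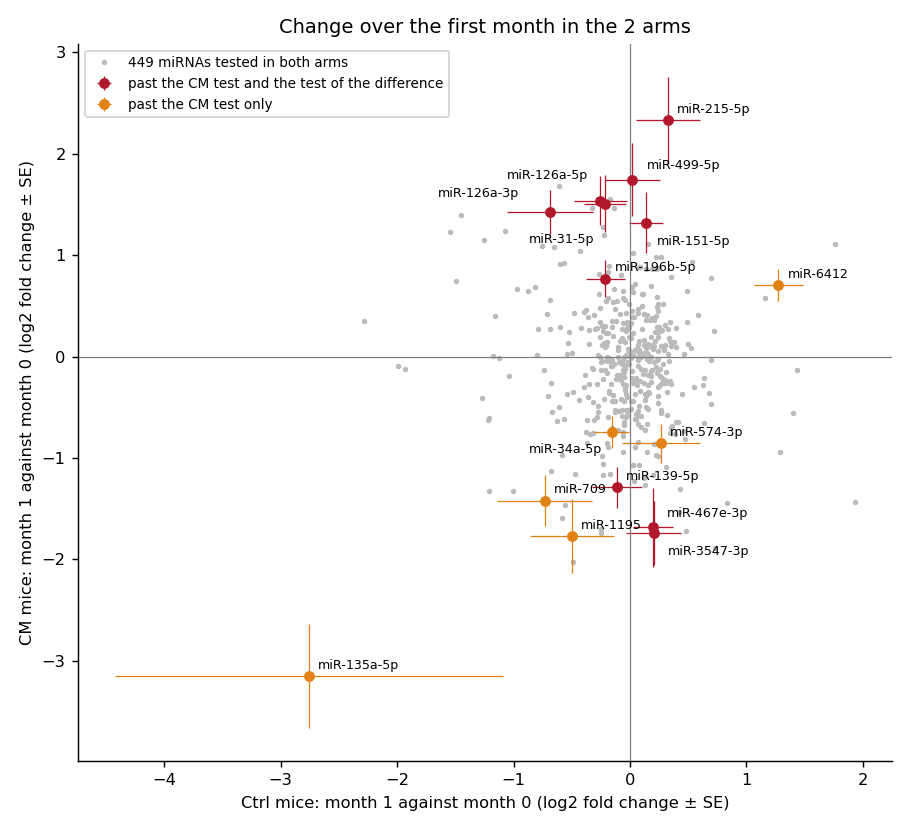
Log2 fold change from month 0 to month 1 in Ctrl mice (horizontal) and CM mice (vertical) for the 449 miRNAs tested in both arms, with SE bars for the 16 that passed in CM mice. Red points also passed the test of a difference between the arms and lie between -0.69 (miR-126a-3p) and 0.33 (miR-215-5p) on the horizontal axis; 9 of the 16, among them miR-6412 and miR-135a-5p, lie on the same side of 0 in both arms.

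The lists of lineage and family miRNAs were described by their counts beside the median of all 466 miRNAs, which was -0.01. Of 12 stem and progenitor miRNAs tested, 3 rose (miR-126a-3p, miR-126a-5p and miR-196b-5p), beside 8 of all 466 (1.72%), and 0 fell, with a list median of 0.37, and 0.23 without mice 3336 and 3368. The 2 miR-126a strands come from 1 hairpin. Log2 fold changes were positive for 8 of the 12 and negative for 4. The lowest was that of let-7e-5p, which was higher in 1 of 7 mice (-0.72 ± 0.24, edgeR adjusted p = 0.0955). The 3 most abundant did not pass, at log2 fold changes of 0.47 for miR-99a-5p, -0.12 for miR-99b-5p and -0.12 for miR-10a-5p. Of 5 platelet miRNAs, miR-126a-3p rose, beside 1.72% of all 466. The abundant miR-21a-5p (0.07 ± 0.19), miR-191-5p (0.33 ± 0.22) and miR-223-3p (-0.63 ± 0.36) and the scarce miR-199a-5p (0.73 ± 0.61) did not pass (edgeR adjusted p between 0.300 and 0.888). The summed platelet list ranged from 123826 to 149415 CPM at month 0 and from 96835 to 179466 CPM at month 1. In that sum miR-21a-5p, also on the immune activation list, averaged 104465 and then 112162 CPM, so the sum does not measure platelets. Of 3 smooth muscle miRNAs of the vessel wall 0 passed, beside 3.43% of all 466. miR-143-3p, a defining member, was lower in 7 of 7 mice (468 ± 159 to 283 ± 123.1 CPM, SD, n = 7 each). Its log2 fold change was -0.76 ± 0.23 (edgeR adjusted p = 0.0822). miR-145a-5p was higher in 2 of 7 mice (-0.75 ± 0.44) and miR-145a-3p in 3 of 7 (0.27 ± 0.43, edgeR adjusted p = 0.318 and 0.764). Smooth muscle miRNAs do not measure endothelium. The part of platelets or vessel cells in the rise of miR-126a was not tested beyond these levels.

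The erythroid list was made of miR-451a, the miR-144 strands and the near-identical miR-486a and miR-486b strands, whose reads may be split uncertainly. Of its 7 members tested 0 passed, beside 3.43% of all 466, while DESeq2 called 5, beside 81 of all 466 (17.4%). By edgeR 6 had an unadjusted p under 0.05, beside 130 of 466 (27.9%). All 7 had positive log2 fold changes (0.56 to 1.40), with a median of 1.15, and of 0.64 without mice 3336 and 3368. miR-451a had a log2 fold change of 0.56 ± 0.49 and -0.04 without these mice. In Ctrl mice the list median was -1.08 and 0 members passed. Removing the list before scaling left 16 calls in CM mice, of which 13 were the same miRNAs, with 11 higher and 5 lower.

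Of 76 miRNAs of the Sfmbt2 cluster, rodent repeats with near-identical members whose reads may be assigned uncertainly, 35 were tested, 1 fell (miR-467e-3p; 1.72% of all miRNAs fell) and 0 rose. Log2 fold changes were negative for 33 of the 35, with a median of -0.64, and 19 had an unadjusted p under 0.05, beside 27.9% of all miRNAs. The summed level of the cluster was lower at month 1 in 7 of 7 CM mice (1194 to 1915 CPM, then 558 to 1548 CPM). Without mice 3336 and 3368 the median was -0.36 and 26 of 35 were negative. In Ctrl mice 27 of 38 were positive, with a median of 0.25, and 0 passed. The median was negative under each of the other scalings (-0.78 to -0.54). In the test of the difference between arms 4 of 41 passed (1.35% of all 520 did so in this direction), all with a more negative change in CM mice (miR-297b-3p, miR-466f-3p, miR-467e-3p and miR-669a-3-3p).

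None of the members tested passed in CM mice in the mature lymphocyte list (4 tested, median -0.43), the granulocyte and monocyte list (5, -0.35), the immune activation list (9, 0.07), miR-17-92 and its paralogs (19, 0.06), the let-7 5p strands (9, -0.0051), miR-29 (6, -0.46), miR-30 (8, 0.02), miR-15 and miR-16 (8, 0.18), miR-181 (6, -0.59), miR-182, miR-183 and miR-96 (3, 0.25), the miR-500 cluster (8, -0.19) and the muscle list (3, 0.92). Over all 466 miRNAs 3.43% passed, so 0 calls in lists this small do not set them apart. With mice 3336 and 3368 left out the medians of the lymphocyte, miR-29 and miR-500 lists became -0.04, 0.13 and 0.03. The medians nearest 0 had no firm sign, and with raw library sizes those of the immune activation, miR-17-92 and miR-30 lists became -0.07, -0.07 and -0.11. The lymphocyte miRNA miR-150-5p was at 41635 ± 9126 and 33475 ± 14773 CPM (SD, n = 7 each; log2 fold change -0.44 ± 0.31, edgeR adjusted p = 0.412). The inflammatory miR-155-5p was at 2579 ± 578 and 2460 ± 877 CPM (SD, n = 7 each; -0.13 ± 0.23, adjusted p = 0.789). Of the 3 liver and gut miRNAs tested, miR-215-5p rose, beside 1.72% of all 466, and miR-192-5p and miR-194-5p did not pass. The hepatocyte miRNA miR-122-5p was at 0.791 to 12.4 CPM and was not tested. No miRNA of the Dlk1-Dio3 region was expressed enough to be tested in CM mice.

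**Figure D5:**
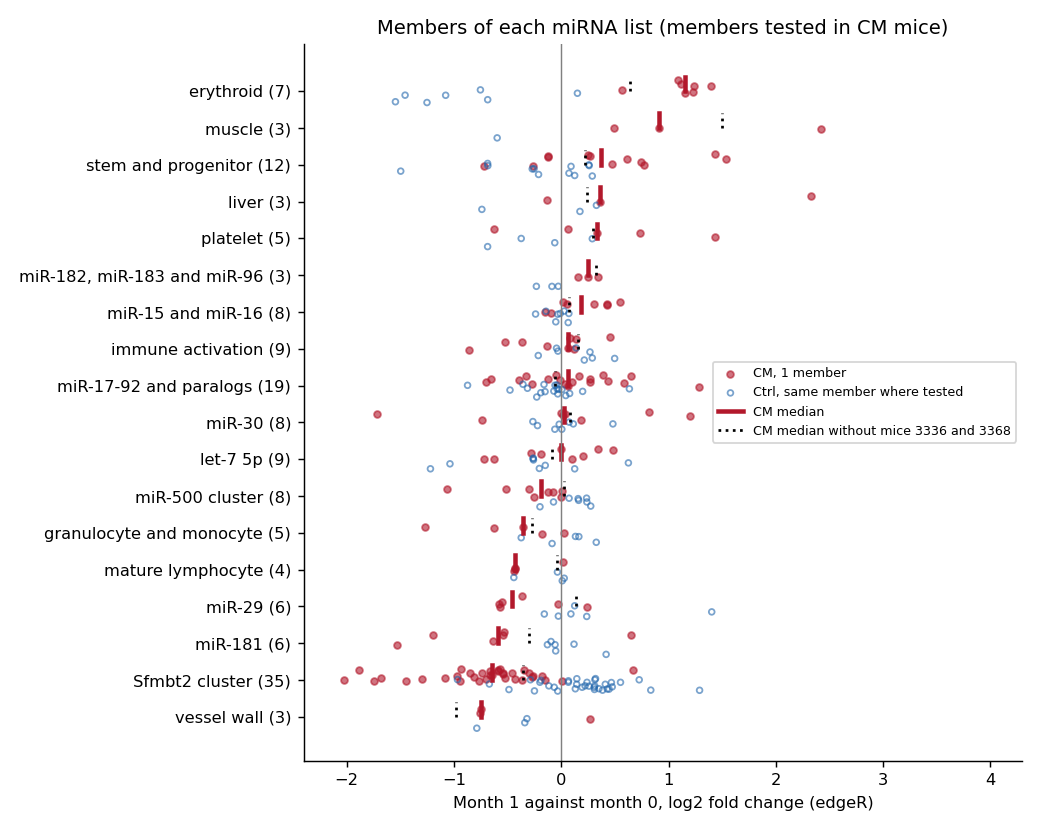
Log2 fold change of each tested list member in CM mice (filled red) and, where tested, in Ctrl mice (open blue), with the CM median as a red bar and the CM median without mice 3336 and 3368 as a dotted bar. The number of members tested in CM mice stands in parentheses. The erythroid list lies to the right in CM mice (median 1.15) and the Sfmbt2 cluster to the left (median -0.64).

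The CM libraries of months 2 and 3, scaled together with the whole training cohort, show where these miRNAs stood afterwards and were not tested. miR-151-5p had medians of 1036, 2688, 3135 and 3180 CPM at months 0, 1, 2 and 3 (n = 7, 7, 6 and 7), and its month 2 libraries (2483 to 4226 CPM) were all above those of month 0 (913 to 2039 CPM), whereas month 3 reached down to 1959 CPM. miR-34a-5p had medians of 75.7, 44.4, 48.8 and 47.02 CPM, and miR-139-5p of 1363, 612, 795 and 905 CPM. miR-6412 went on from 49.6 and 73.1 to 125.4 and 144 CPM. miR-499-5p was at a median of 7.23 CPM at month 2 and 16.5 CPM at month 3, after 7.14 CPM at month 0 and 18.6 CPM at month 1. miR-126a-3p had medians of 124.4, 353, 249 and 241 CPM, and its highest library rose from 449 CPM at month 1 to 1475 CPM at month 3. Ctrl mice also rose in miR-6412, with medians of 37.2, 81.6, 126.5 and 124.5 CPM at months 0, 1, 2 and 3. Their miR-139-5p was lower from month 2 on, at 1858, 1675, 1129 and 1182 CPM. Ctrl medians moved less for miR-151-5p (1038 to 1298 CPM), miR-34a-5p (90.8 to 100.7 CPM) and miR-126a-3p (100.7 to 116.3 CPM). The arms were not compared by a test at months 2 and 3 alone.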

How the data were processed

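Peripheral blood mononuclear cell small RNA libraries of CM and Ctrl mice at months 0 and 1 were compared. Raw counts per miRNA (1863 rows) and a normalised signal in CPM (1895 rows) were deposited by the authors, whose notes list cutadapt, Bowtie, SAMtools and edgeR with GRCm38, without versions, whereas the study's methods name another build. All deposited CPM values were whole multiples of 1 read (100% within 0.001), and these reads served as an alternative. Counts were TMM-scaled and filtered with filterByExpr. They were tested with edgeR 4.0.16 (R 4.3.3) by the quasi-likelihood method, two-sided, with mouse as a block (6 residual degrees of freedom) and Benjamini-Hochberg adjustment over all miRNAs tested, called under 0.05. DESeq2 1.42.0 and limma 3.58.1 on log2(CPM + 1) were alternatives, with scaling, filters, G number, later months and leaving out each mouse. Pairs share a mouse in the labels, and deviations of its libraries correlated at -0.15 to 0.10 in CM and -0.23 to 0.07 in Ctrl mice. The best match was the library of the same mouse for 0 of 7 mice in each arm, so these values gave no sign of the pairing. Scripts were tested on simulated data. Floors of 3 counts cover counting error only, whereas the SE from edgeR and the SD also take in variation between mice. Library totals are given with the results.

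Named were both miR-126a strands, the 10 called miRNAs with the largest fold change and the 5 most abundant either way whose higher month averaged 10 CPM or more with the same direction in every mouse, the 5 largest differences between arms in each direction, and the 3 most abundant members of each list as examples; others are said to be named after their values were seen. The comparison, its members and the lists were chosen with earlier results of these data known. Mature sequences were taken from RefSeq and matched to NCBIM37 without mismatch. Libraries of the other cohort were not used here.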

Additional observations from a re-analysis of the deposited data

Results flagged for a closer look

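With 7 mice per arm, a value far from the rest of its group was sought in 32 sets, of which chance gives about 1 in 20, and 3 were found. The log2 change of miR-499-5p was 3.58 in CM mouse 3336, whose month 1 library had 39.1% of its counts in the erythroid list, and the part of that share was not tested. The log2 change of miR-135a-5p was -5.13 in CM mouse 3370, where the month 1 library held 1 count. The month 1 library of Ctrl mouse 3346 held 6334849 counts, the most among the 7 Ctrl libraries of that month.

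The change over the first month differed between the arms, by the test of the interaction in edgeR, for 21 miRNAs. The log2 change in CM mice minus that in Ctrl mice was positive for miR-133a-3p (4.52), miR-6546-5p (4.00), miR-375-3p (2.33), miR-126a-3p (2.14), miR-215-5p (2.04), miR-126a-5p (1.82), miR-2137 (1.82), miR-31-5p (1.75), miR-499-5p (1.75), miR-25-5p (1.55), miR-151-5p (1.21), miR-331-3p (1.06), miR-196b-5p (1.01) and let-7g-5p (0.77). It was negative for miR-669a-3-3p (-2.58), miR-135a-1-3p (-2.42), miR-3547-3p (-1.91), miR-467e-3p (-1.85), miR-297b-3p (-1.36), miR-139-5p (-1.14) and miR-466f-3p (-1.03). miR-6546-5p was at 0.452 to 7.61 CPM in CM libraries, and its mature sequence was found at 3 places in NCBIM37. miR-25-5p was lower in 6 of 7 Ctrl mice and higher in 6 of 7 CM mice.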

How the results depend on the processing

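Of the values of single miRNAs under the alternatives, 35.1% of 336 in CM mice and 49.3% of 406 for the difference between arms lost the threshold, and 0 changed direction. For CM mice, in place of 16 calls, the fit with no replicate block, which ignores the pairing by mouse, gave 59, DESeq2 81, no count filter 69, the deposited CPM with limma 68 (67 with a pseudocount of 0.5, 25 without a filter), all months 56 with the G number and 51 without, of which 8 and 10 were among the 16, the G number without the mouse block 27, of which 10 were, and the recovered reads 49. Leaving out 1 mouse gave 4 (mouse 3336, 3338 or 3370) to 47 (mouse 3334), with 5 without mouse 3357 and 6 without mouse 3368, and leaving out mice 3336 and 3368 gave 0. Over all months miR-126a-3p and miR-126a-5p missed the threshold with the G number (edgeR adjusted p = 0.106 and 0.0874) and without it (0.143 and 0.137). For Ctrl mice, in place of 0 calls, no replicate block gave 3, DESeq2 4, no filter 35, limma 1 in each of its 3 versions, all months 13 with or without the G number, and the recovered reads 1, and leaving out 1 mouse gave 0 each time. For the difference between arms, in place of 21, no replicate block gave 44, DESeq2 44, raw library sizes 3, no filter 60, a filter of 10 counts in 7 libraries 10, limma 40, 39 and 11, all months without the G number 35, the G number without the block 12, and leaving out mice 3336 and 3368 gave 0. Leaving out 1 mouse gave 0 (mouse 3335) to 21 (mouse 3334) there, with 1 without mouse 3357, 3 without 3336 or 3338, 5 without 3368, 6 without 3342 or 3346, 8 without 3350, 9 without 3370, 10 without 3340 and 11 without 3339. The recovered reads and the fits without mice 3336 and 3368 were added after the data had been seen. The cause of these differences was not tested. miRNAs under about 1 CPM lie near 3 counts and were not resolved at this depth.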

Other observations

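Some abundant miRNAs varied widely between the 14 CM libraries. Chosen after their values were seen, among 175 miRNAs with a mean of at least 100 CPM the highest level was 3.16 times the lowest in the median, but 97.5 times for miR-19b-3p (69.6 to 6788 CPM), 84.3 times for miR-125b-5p (3.66 to 308 CPM), 51.3 times for miR-450a-5p, 48.3 times for miR-1a-3p, 35.0 times for miR-184-3p, 26.4 times for miR-24-3p, 26.2 times for miR-103-3p and 23.8 times for miR-16-5p. miR-24-3p was lower at month 1 in 6 of 7 mice (log2 fold change -1.27 ± 0.52). None of these 8 passed the test of month 1 against month 0 (edgeR adjusted p between 0.155 and 0.953).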
